A study of Mus musculus with 800 samples.

Results

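The 6 genes described here carry nitric oxide to cyclic GMP signalling: Nos1, which encodes neuronal nitric oxide synthase and so marks the source of the signal, and Gucy1a1, Gucy1a2, Gucy1b1, Prkg1 and Prkg2, which act in the cells that receive it. They are the rows of the deposited count table whose gene identifiers match these 6 symbols, 6 of 32285 genes. All 6 had reads. The values come from 800 single nuclei of C57Bl/6J mice, 40 for each of 20 adeno-associated virus (AAV) vectors, all labelled as anterior lateral motor cortex (ALM) and sorted for a yellow fluorescent reporter, SYFP2 fused to histone H2B. Every vector has the PHP.eB capsid, which carries AAV from the blood into the brain, and the vectors differ in the promoter or enhancer that drives the reporter. They were hSyn1 (a neuronal promoter), CMV (a viral promoter active in many cell types), DLX2.0 and hI56i, and 16 with a code and no stated target cell type: AiE0078h, AiE0140h, AiE0387m, AiE0390m, AiE0391h, AiE0401h, AiE0410m, AiE0445h_3xC2, AiE0447h, AiE0450h, AiE0452h, AiE0475m, AiE0600m, AiE0682h, AiE0743m_3xC2 and AiE0779m. The series design gives a dose of 5e11 vg (vector genomes) per mouse in young adulthood and sorting 3 to 4 weeks later. No animal is named, so each vector counts as 1 sample, and p-values measure the spread between vectors.

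Nitric oxide is a gas made from arginine by nitric oxide synthase. It leaves the cell that makes it and binds soluble guanylyl cyclase, a dimer of an alpha subunit (Gucy1a1 or Gucy1a2) and the beta subunit Gucy1b1, which then makes cyclic GMP. Cyclic GMP acts through the cGMP-dependent protein kinases Prkg1 and Prkg2, through ion channels, and through phosphodiesterases that break down cyclic nucleotides. In cortex and striatum, strong Nos1 is known from sparse interneurons that also make somatostatin and neuropeptide Y, and striatal projection neurons are known for high levels of soluble guanylyl cyclase.

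Reads per nucleus had a median of 260170 (70 to 901264), and medians per vector ran from 209113 to 314832. The 698 nuclei with at least 1000 genes were clustered without the 6 genes or their pathway and named from markers, with "-like" added because the names rest on RNA alone: 278 GABAergic-like (inhibitory neurons), 160 striatal projection neuron-like, 108 glutamatergic-like (excitatory neurons), 102 astrocyte-like and 50 oligodendrocyte-like. The 160 striatal projection neuron-like nuclei go against their cortical label: all 11 markers of that class had reads in them, with a summed level of 6936 CPM (a gene's reads scaled to a total of 1000000 reads of the nucleus or group), against 351 CPM in GABAergic-like and 446 CPM in glutamatergic-like nuclei. They were not spread evenly. The title numbers within a vector were cut into runs of 8 consecutive numbers, a size chosen here. Of 97 runs with nuclei of at least 1000 genes, 38 held a striatal projection neuron-like nucleus. In 8 of these every nucleus with at least 1000 genes was of that class. The region these nuclei came from was not tested, and the series design names striatum (STR) and visual cortex (VISp) among the sorted regions. Median depth was alike in the classes, from 240656 to 301414 reads, while genes detected per nucleus differed, with medians of 2654 to 3264 for the 3 neuronal classes, 1443 for astrocyte-like and 1140 for oligodendrocyte-like nuclei.

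The letters below are the stretches before the transcription starts that the RefSeq table gives, shown because they set Gucy1a1 and Gucy1b1, 2 neighbouring genes with the same leading class, beside the source gene and the other alpha subunit. They come from the GRCm38.p6 table of RefSeq, with bases inside annotated exons left out, and are written 5′ to 3′ in the direction of the gene. Capitals mark matches, on either strand, to GGGCGG (the GC box), CCAAT (the CCAAT box) or TGACG (the core of the cyclic AMP response element).
Nos1: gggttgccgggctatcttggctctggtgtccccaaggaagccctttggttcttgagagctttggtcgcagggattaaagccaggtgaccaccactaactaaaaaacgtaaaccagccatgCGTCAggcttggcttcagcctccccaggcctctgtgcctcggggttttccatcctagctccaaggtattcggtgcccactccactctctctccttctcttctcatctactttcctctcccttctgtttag
Gucy1a2: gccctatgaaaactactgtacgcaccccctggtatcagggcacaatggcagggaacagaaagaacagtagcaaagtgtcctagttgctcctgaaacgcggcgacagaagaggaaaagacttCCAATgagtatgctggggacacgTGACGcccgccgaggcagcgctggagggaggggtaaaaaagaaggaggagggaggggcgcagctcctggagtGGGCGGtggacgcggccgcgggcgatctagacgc
Gucy1a1: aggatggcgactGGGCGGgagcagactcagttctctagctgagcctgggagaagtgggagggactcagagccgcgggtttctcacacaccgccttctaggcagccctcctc
Gucy1b1: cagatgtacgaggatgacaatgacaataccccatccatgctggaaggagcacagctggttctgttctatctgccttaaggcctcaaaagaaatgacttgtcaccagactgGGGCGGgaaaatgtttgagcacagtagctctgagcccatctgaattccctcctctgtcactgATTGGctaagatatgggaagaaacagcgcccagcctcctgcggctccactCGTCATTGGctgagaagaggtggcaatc
The stretches lie at chr5:117866589-117866838 (plus strand) for Nos1, chr9:3532099-3532348 (plus strand) for Gucy1a2, chr3:82145790-82145900 (minus strand) for Gucy1a1 and chr3:82074712-82074961 (minus strand) for Gucy1b1. The Nos1 stretch lies inside the gene body of the GENCODE M21 annotation of mm10, which starts upstream at 117781032, so it stands before 1 annotated start and not before the whole gene. Gucy1a1 and Gucy1b1 are neighbours on the same strand of chromosome 3, with 17.7 kb between their gene bodies in that annotation. GGGCGG was found at -238 of the Gucy1a1 start, -140 of the Gucy1b1 start and -34 of the Gucy1a2 start, and 35.7% of 32851 mouse promoter windows of the same length (250 bases before to 50 after a start) hold it. CCAAT, which 37.4% of windows hold, was found at -129 in Gucy1a2 and at -78 and -24 in Gucy1b1, where the last match overlaps a TGACG match at -28. TGACG, held by 20.8% of windows, was also found at -106 in Gucy1a2 and at -130 in Nos1. The full element TGACGTCA (1.79% of windows) and TATAAA (13.6%) were in none of these windows. Each match is a description of letters and was not tied to any value.

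Nos1 reads sat almost entirely in a small group of GABAergic-like nuclei. The gene (ENSMUSG00000029361, chromosome 5, 117781032 to 117958840, plus strand, mm10) had a read in 39 of the 698 nuclei and 13223 reads in all, and 12854 of these (97.2%) fell in the 32 nuclei of the Sst Chodl type-like subclass, named from Chodl, Sst, Npy, Tacr1 and Crhbp. In that subclass 23 of 32 nuclei had Nos1 reads (71.9%, exact Clopper-Pearson 95% interval 53.3 to 86.3%, for counting error only). Levels in those 23 nuclei ran from 151 to 3647 CPM with a median of 1597 CPM. Outside the subclass 16 of 666 nuclei had a read, none above 248 CPM, and 1 of the 23 lay below that value. The subclass held nuclei of 12 vectors, and Nos1 was read in each of the 12. In the 5 vectors with at least 3 such nuclei the summed level was 219 CPM in AiE0078h, 782 CPM in AiE0450h, 883 CPM in AiE0401h, 1481 CPM in AiE0445h_3xC2 and 1980 CPM in AiE0475m, a mean of 1069 ± 678 CPM (SD, n = 5).

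**Figure D1:**
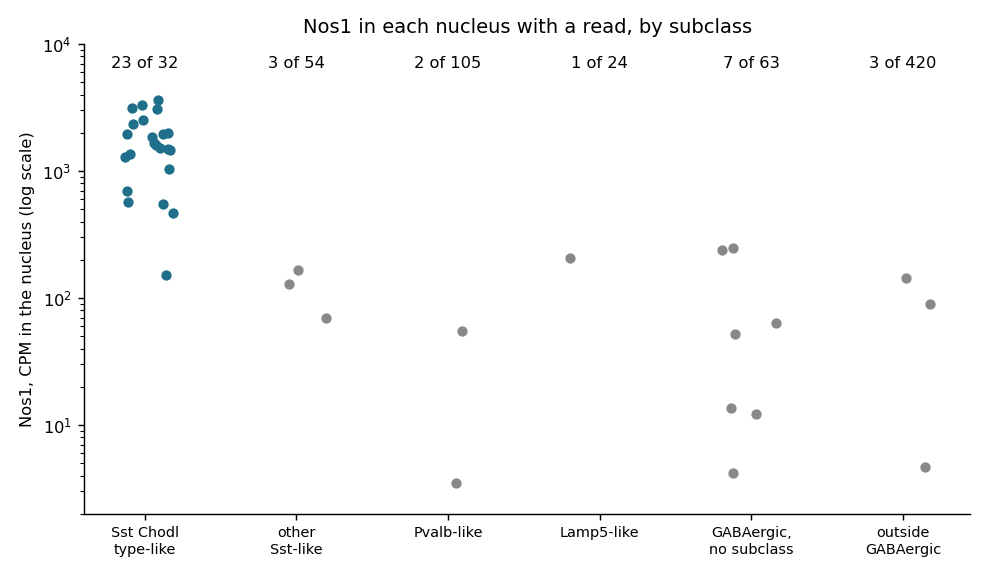
Nos1 in each of the 39 nuclei with a read (vertical axis, CPM on a log scale), by subclass, with the number of nuclei with a read above each group. The 23 Sst Chodl type-like nuclei lie between 151 and 3647 CPM, and the 16 other nuclei lie at or below 248 CPM.

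The source nuclei carried other genes of this interneuron type. All 23 Nos1 nuclei of the subclass had reads of Npy (neuropeptide Y) and 10 had reads of Chodl, a membrane lectin used as the type's marker, although both were among the markers that named the subclass. Of the 39 Nos1 nuclei 30 had Sst reads. Among all 86 Sst-like nuclei 26 had Nos1 reads, and of the 54 outside the Chodl type 3 did. Over the 278 GABAergic-like nuclei the genes whose log2(CPM + 1) was most like that of Nos1 were Hhip (Pearson r = 0.72), Nnat (0.70), Tacr1 (the substance P receptor, 0.60), Chodl (0.60) and Galr1 (a galanin receptor, 0.60). Tacr1 and Chodl are markers of the subclass, and Hhip, Chodl and Galr1 had reads in 19, 11 and 10 of these nuclei. Nuclei share vectors and depth, so these values are descriptions.

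Of the 9 nuclei of the subclass without Nos1, 4 also held reads of at least 3 of 5 endothelial and at least 2 of 7 pericyte and smooth muscle markers, cells of the vessel wall. These 4 nuclei had no Nos1 read, while all 4 had Gucy1a1 (169 CPM) and Gucy1b1 (155 CPM). Without them Nos1 was read in 23 of 28 nuclei (82.1%, 63.1 to 93.9%), and the level over all nuclei of the subclass moved from 1370 to 1541 CPM. No other nucleus of any class met that count of vascular markers.

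By class, Nos1 averaged 166 ± 185 CPM in GABAergic-like nuclei (SD, n = 18 vectors with at least 3 such nuclei, lowest 0, median 106, highest 673 CPM). In glutamatergic-like nuclei it averaged 1.07 ± 3.72 CPM (n = 12) and in striatal projection neuron-like nuclei 0.682 ± 2.55 CPM (n = 14), and in each of these classes a single nucleus had reads. Astrocyte-like nuclei had 2 reads in 1 nucleus, a mean of 0.0591 ± 0.167 CPM (n = 8). Of 50 oligodendrocyte-like nuclei 0 had a read, which allows a share of nuclei with a read of up to 6% at 3 counts and up to 7.11% by the exact interval. The spread within GABAergic-like nuclei followed the subclass: with the Sst Chodl type-like nuclei left out, the GABAergic-like mean was 4.87 ± 8.31 CPM (n = 18).

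**Figure D2:**
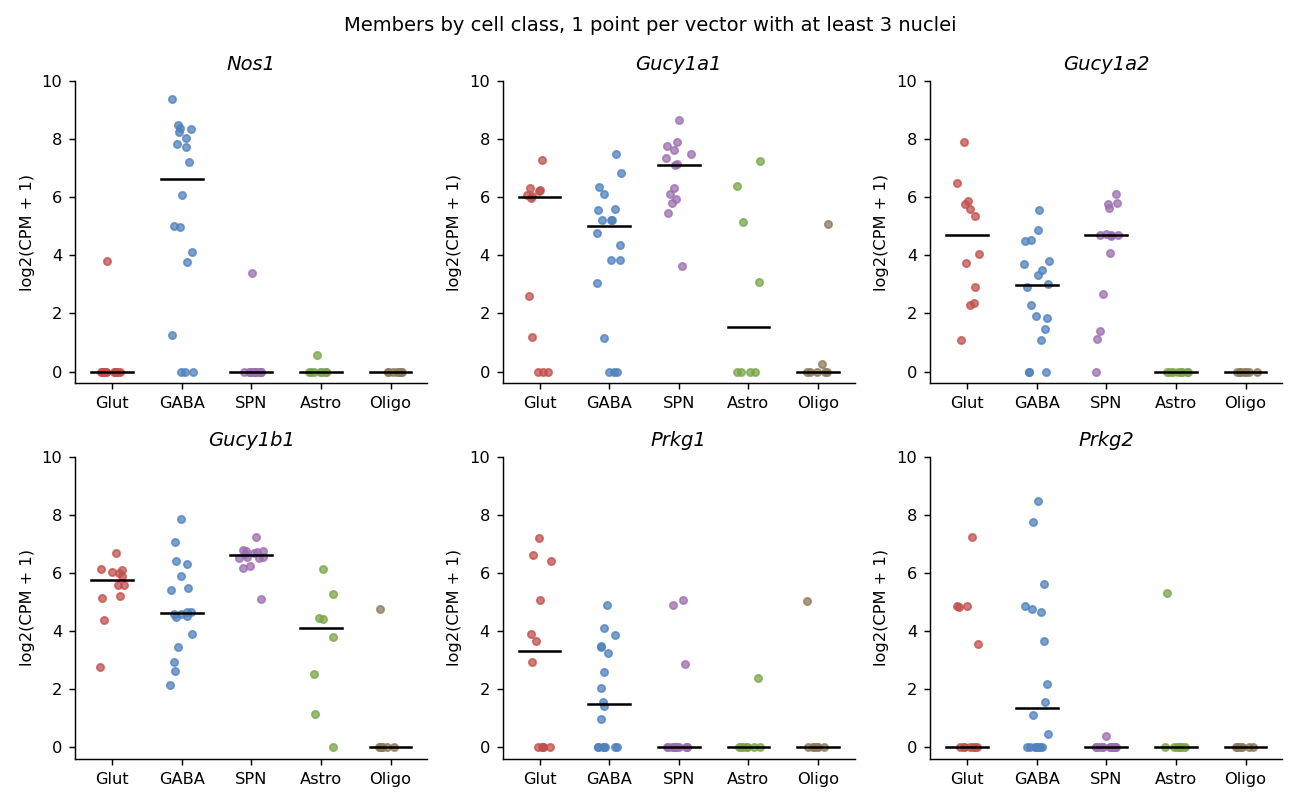
The 6 genes in 5 cell classes (Glut, GABA, SPN, Astro and Oligo stand for glutamatergic-like, GABAergic-like, striatal projection neuron-like, astrocyte-like and oligodendrocyte-like nuclei). Each point is log2(CPM + 1) of the reads summed over 1 vector with at least 3 nuclei of the class, and the bar is the median over vectors. Nos1 is high in GABA alone, while Gucy1a1 and Gucy1b1 have their highest medians in SPN.

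Classes were compared within vectors on summed reads with edgeR's quasi-likelihood test, vector as a block and Benjamini-Hochberg adjustment over all genes tested (called at an adjusted p under 0.05). In striatal projection neuron-like against GABAergic-like nuclei (12 vectors) Nos1 was lower in the former, at 0 CPM in 11 vectors and 9.55 CPM in AiE0445h_3xC2. In GABAergic-like nuclei of the same vectors it was 0 CPM in AiE0391h, 16.4 to 31.1 CPM in 3 vectors and 209 to 673 CPM in the other 8. The fitted log2 difference was -10.99 ± 1.04 (SE, adjusted p = 5.03e-07, lower in 11 of 12 vectors), a size that depends on the zeros. This was the single call among the 4 of the 6 genes that passed the filter on low counts, where 3.14% of 9293 genes were called higher and 5.60% lower. Without AiE0445h_3xC2, whose 1 nucleus held every striatal projection neuron-like read of the gene, Nos1 fell below the filter and was not tested, leaving 0 calls.

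The filter also kept Nos1 out of the comparison with glutamatergic-like nuclei, since so few summed samples held it. There it was higher in GABAergic-like nuclei in 11 of 12 vectors and at 0 in both classes under CMV, with means of 183 ± 203 and 1.07 ± 3.72 CPM (exact two-sided sign-flip permutation test on log2(CPM + 1), p = 0.000977, unadjusted, 1 of 30 such tests). In Sst-like against Pvalb-like nuclei, 2 large classes of interneurons, it was higher in 10 of 12 vectors and at 0 in both in the other 2, with means of 552 ± 527 and 0.170 ± 0.461 CPM (exact p = 0.00195, unadjusted). The Sst-like sums include the Sst Chodl type-like nuclei. Without those nuclei (an alternative chosen after seeing the data) the means were 11.1 ± 19.02 CPM and 0 CPM in 7 vectors, higher in 2 and at 0 in both in 5, and Nos1 did not pass the filter. With no filter and the Chodl type included, edgeR gave adjusted p-values of 8.49e-11 and 6.70e-27 for these 2 comparisons. Both values depend on the zeros, since Nos1 was at 0 CPM in glutamatergic-like and in Pvalb-like nuclei of most vectors. Pvalb-like nuclei held 7 Nos1 reads in 2 of 105 nuclei.

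The receptor subunits were read in many more nuclei than the source gene. Gucy1b1 was read in 219 of the 698 nuclei (31.4%), Gucy1a1 in 143 (20.5%) and Gucy1a2 in 128 (18.3%). Where they were read, the median was 28, 49 and 10 reads per nucleus. At this depth a nucleus with 0 reads cannot be told from one whose level was below detection, so the comparisons use reads summed over nuclei.

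Gucy1a1, the alpha-1 subunit (ENSMUSG00000033910, chromosome 3, 82092427 to 82145789, minus strand), had its highest mean in striatal projection neuron-like nuclei. There it was 142 ± 104 CPM (SD, n = 14 vectors, 11.46 to 406 CPM), with a read in 68 of 160 nuclei (42.5%, 34.7 to 50.6%). Glutamatergic-like nuclei followed at 48.4 ± 48.1 CPM (n = 12), GABAergic-like at 40.3 ± 46.3 CPM (n = 18), astrocyte-like at 34.6 ± 55.5 CPM (n = 8) and oligodendrocyte-like at 4.69 ± 12.3 CPM (n = 7). The 3 middle classes lie within each other's spread. At a depth thinned to 150000 reads per nucleus (35 shallower nuclei left out) the shares of nuclei with a read were 42.6, 19.8, 15.8, 5 and 4.08% in the same order, against 42.5, 21.3, 16.2, 4.90 and 4% before.

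Gucy1a1 also varied within classes. In 28 Drd2-type-like nuclei, the striatal projection neurons of the indirect pathway, 17 had a read (60.7%, 40.6 to 78.5%), at 148 CPM over all of them. In 48 Drd1-type-like nuclei, those of the direct pathway, 13 did (27.1%, 15.3 to 41.9%), at 66.9 CPM. The 2 intervals overlap, and the difference was not tested. Over vectors the means were 135 ± 90.4 CPM in Drd2-type-like (SD, n = 3) and 63.2 ± 53.7 CPM in Drd1-type-like nuclei (n = 7). Of the 84 striatal projection neuron-like nuclei without a type 38 had a read (45.2%, 163 CPM). Among the subclasses of GABAergic-like and glutamatergic-like nuclei it was read in 17 of 32 Sst Chodl type-like nuclei (53.1%, 140 CPM), the same subclass that holds Nos1, and in 15 of 34 L2/3 IT-like nuclei, upper-layer cortical neurons (44.1%, 110 CPM). It was rare in the other 54 Sst-like nuclei, with 2 nuclei (3.70%, 8.37 CPM), and in 24 Lamp5-like nuclei, with 1 (4.17%, 4.65 CPM). Without the 4 nuclei with vascular markers the Sst Chodl type-like share was 13 of 28 (46.4%, 137 CPM).

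Gucy1b1, the beta subunit that both dimers need (ENSMUSG00000028005, chromosome 3, 82032006 to 82074689, minus strand), had the same leading class and a narrower spread. It averaged 94.6 ± 25.5 CPM in striatal projection neuron-like nuclei (n = 14, 33.4 to 150 CPM), where 83 of 160 nuclei had a read (51.9%, 43.9 to 59.8%). The mean was 51.6 ± 25.8 CPM in glutamatergic-like (n = 12), 47.2 ± 57.1 CPM in GABAergic-like (n = 18), 20.9 ± 23.4 CPM in astrocyte-like (n = 8) and 3.68 ± 9.74 CPM in oligodendrocyte-like nuclei (n = 7). Neighbours in this order differed by less than the larger of their SDs, apart from the step from striatal projection neuron-like to glutamatergic-like nuclei. Within classes it was read in 27 of 48 Drd1-type-like (56.3%, 87.5 CPM), 12 of 28 Drd2-type-like (42.9%, 51.5 CPM), 14 of 32 Sst Chodl type-like (43.8%, 99.4 CPM) and 33 of 105 Pvalb-like nuclei (31.4%, 35.2 CPM). Without the 4 nuclei with vascular markers the Sst Chodl type-like share was 10 of 28 (35.7%, 92.5 CPM).

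In the same vectors both of these subunits leaned to striatal projection neuron-like nuclei without passing edgeR's threshold. Against GABAergic-like nuclei, Gucy1a1 was higher in 10 of 12 vectors, at 154 ± 108 against 44.9 ± 53.3 CPM (log2 difference 2.58 ± 0.99, edgeR adjusted p = 0.126, DESeq2 adjusted p = 0.00236, exact sign-flip permutation p = 0.00391, unadjusted). The 2 vectors that went the other way were AiE0682h (54.2 against 178 CPM) and AiE0475m (67.6 against 68.2 CPM). Gucy1b1 was higher in 10 of 12 vectors, at 92.0 ± 20.9 against 61.8 ± 65.7 CPM (log2 difference 1.28 ± 0.69, edgeR adjusted p = 0.304, exact permutation p = 0.0283, unadjusted), with AiE0391h and hI56i the other way. Gucy1a2 was at 25.02 ± 19.2 against 10.5 ± 13.6 CPM, higher in 7 vectors and lower in 4 (log2 difference 1.71 ± 1.35, edgeR adjusted p = 0.524). For Gucy1b1 the wider spread was on the GABAergic-like side, where it ran from 3.38 CPM in AiE0447h to 232 CPM in hI56i.

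**Figure D3:**
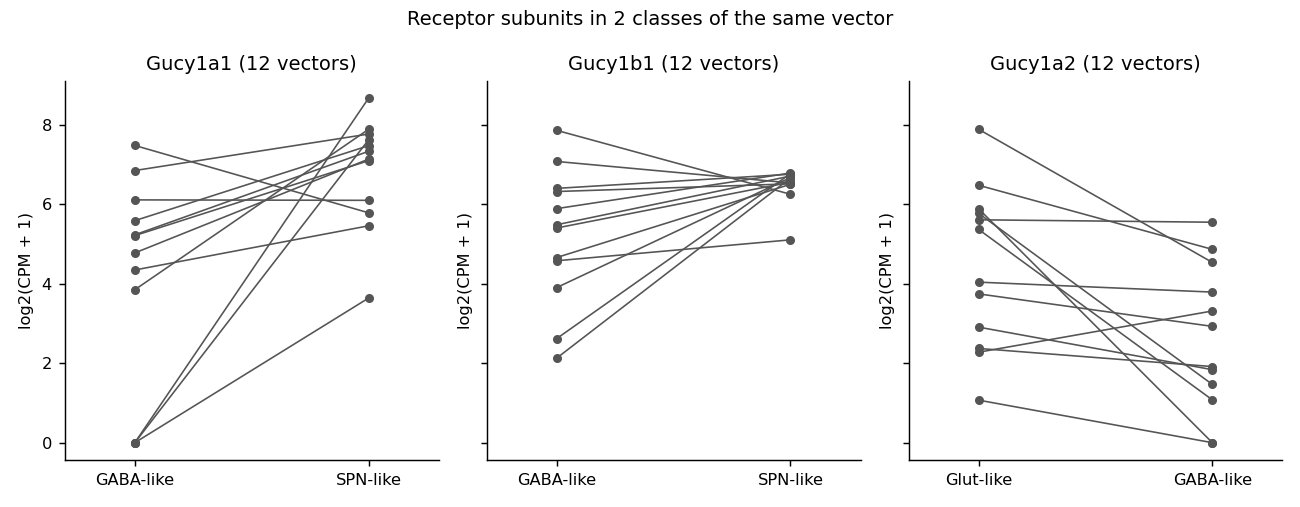
Receptor subunits in 2 classes of the same vector, as log2(CPM + 1) of summed reads, each line 1 of 12 vectors. Gucy1a1 and Gucy1b1 are higher in striatal projection neuron-like (SPN-like) than GABAergic-like (GABA-like) nuclei in 10 of 12 vectors each, and Gucy1a2 is lower in GABAergic-like than glutamatergic-like (Glut-like) nuclei in 11 of 12.

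Against glutamatergic-like nuclei (9 vectors) Gucy1a1 was higher in striatal projection neuron-like nuclei in 8 vectors, at 142 ± 121 against 40.7 ± 54.0 CPM (log2 difference 3.73 ± 1.39, edgeR adjusted p = 0.227). Gucy1b1 was higher in 8 vectors as well, at 89.0 ± 23.3 against 52.7 ± 29.2 CPM (log2 difference 0.95 ± 0.87, edgeR adjusted p = 0.892). The exact sign-flip permutation p was 0.00781 for each, unadjusted. edgeR called 0 of the 3 genes tested there (1 at an unadjusted p under 0.05, Gucy1a1), where 1.65% of 7594 genes were called higher and 1.44% lower, and DESeq2 called Gucy1a1 (adjusted p = 0.000856). These 2 comparisons share the striatal projection neuron-like sums of vectors that enter both.

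Gucy1a2, the alpha-2 subunit (ENSMUSG00000041624, chromosome 9, 3532778 to 3894736, plus strand), had its highest mean in glutamatergic-like nuclei, where 1 vector weighed heavily. It averaged 47.3 ± 65.6 CPM there (n = 12, 1.10 to 236 CPM) and 30.2 ± 29.04 CPM without AiE0452h, whose 4 nuclei gave the 236 CPM, with a read in 36 of 108 nuclei (33.3%, 24.6 to 43.1%). Striatal projection neuron-like nuclei had 26.7 ± 21.9 CPM (n = 14, 26.3% of nuclei) and GABAergic-like nuclei 10.4 ± 12.2 CPM (n = 18, 17.6%). In the 9 vectors with both classes the levels of striatal projection neuron-like and glutamatergic-like nuclei overlapped, at 21.7 ± 19.5 and 24.4 ± 29.2 CPM, higher in 3 vectors and lower in 6 (log2 difference -0.49 ± 1.48, edgeR adjusted p = 0.982). Astrocyte-like nuclei held 1 read in 102 nuclei, and 0 of 50 oligodendrocyte-like nuclei had any. It was lower in GABAergic-like than in glutamatergic-like nuclei in 11 of 12 vectors, at 11.1 ± 14.2 against 47.3 ± 65.6 CPM (log2 difference -2.19 ± 1.24, edgeR adjusted p = 0.542, exact sign-flip permutation p = 0.00537, unadjusted). The vector AiE0450h went the other way, at 8.95 against 3.85 CPM. In that comparison edgeR called 0 of the 3 genes tested (0 also at an unadjusted p under 0.05), where 1.71% of 9122 genes were called higher and 1.37% lower, while DESeq2 called Gucy1a2 (adjusted p = 0.0229). The other 2 differed less: Gucy1a1 was higher in GABAergic-like nuclei in 5 vectors and lower in 6 (log2 difference 0.41 ± 1.74, edgeR adjusted p = 0.967), and Gucy1b1 was lower in 8 of 12 (-1.36 ± 1.05, adjusted p = 0.718).

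Between Sst-like and Pvalb-like nuclei (12 vectors) no tested receptor gene was called. edgeR called 0 of the 2 genes tested (0 at an unadjusted p under 0.05, 0 by DESeq2), where 0.434% of 7148 genes were called higher and 0.280% lower. Gucy1a1 averaged 75.1 ± 97.4 CPM in Sst-like and 65.7 ± 77.9 CPM in Pvalb-like nuclei (log2 difference 0.69 ± 2.15, adjusted p = 1), and Gucy1b1 49.7 ± 71.5 and 19.4 ± 22.5 CPM (0.97 ± 1.92, adjusted p = 1). Without the Sst Chodl type-like nuclei the order of Gucy1a1 turned, at 1.71 ± 4.52 CPM in Sst-like and 62.5 ± 83.2 CPM in Pvalb-like nuclei (7 vectors, lower in 5 and at 0 in both in 2), and the gene did not pass the filter. The SE of about 2 on the log2 scale means that differences of several-fold could not be detected here.

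In non-neuronal-like against neuronal-like nuclei (15 vectors) all 3 receptor genes were called lower, in a comparison where most genes leaned that way: 41.9% of 9568 genes were called lower and 1.96% higher, and the median log2 difference of all genes was -3.52. Gucy1a2 was at 0 CPM in non-neuronal-like nuclei in every vector and averaged 22.9 ± 18.9 CPM in neuronal-like nuclei (log2 difference -9.35 ± 1.49, edgeR adjusted p = 4.74e-05). It passed the filter on low counts through the neuronal-like sums alone, and the fitted size depends on the zeros. Gucy1a1 averaged 20.7 ± 38.2 against 68.3 ± 35.5 CPM (log2 difference -7.29 ± 1.88, adjusted p = 0.00238, lower in 14 of 15 vectors). Gucy1b1 averaged 12.7 ± 19.97 against 62.5 ± 32.9 CPM (log2 difference -5.05 ± 1.74, adjusted p = 0.0194, lower in 15 of 15). With the block of vectors left out of the model, the difference was -1.74 for Gucy1a1 (adjusted p = 0.364) and -2.22 for Gucy1b1 (adjusted p = 0.162), neither called, while Gucy1a2 was still called. Without the runs that held a striatal projection neuron-like nucleus none of the 3 was called, and Gucy1a2 was not tested.

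The non-neuronal-like reads of Gucy1a1 and Gucy1b1 came from few nuclei. Gucy1a1 was read in 5 of 102 astrocyte-like nuclei (4.90%, 1.61 to 11.1%), at 74.7 to 901 CPM, and Gucy1b1 in 13 (12.7%, 6.96 to 20.8%). Of those nuclei 3 of 5 and 7 of 13 also had a read of a pericyte or smooth muscle marker, against 42 of 97 and 38 of 89 nuclei without the gene. In astrocyte-like nuclei 5 of 7 markers of that list had reads, 187 CPM in sum, of which Pdgfrb gave 182 CPM in 44 nuclei, while Vtn and Myh11 were at 0. All 7 were at 0 in oligodendrocyte-like nuclei, and the sum was 173 CPM in GABAergic-like, 4.83 CPM in glutamatergic-like and 0.535 CPM in striatal projection neuron-like nuclei. Of the 5 endothelial markers 1437 CPM were read in astrocyte-like nuclei, 1408 CPM of them from Slco1c1, a transporter that astrocytes also make. The part of vessel cells in these reads was not tested. A single vector had at least 3 nuclei of both non-neuronal classes, which allowed no test between them. With a lower minimum of genes per nucleus 3 vectors did, and none of the 6 genes passed the filter in that fit.

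**Figure D4:**
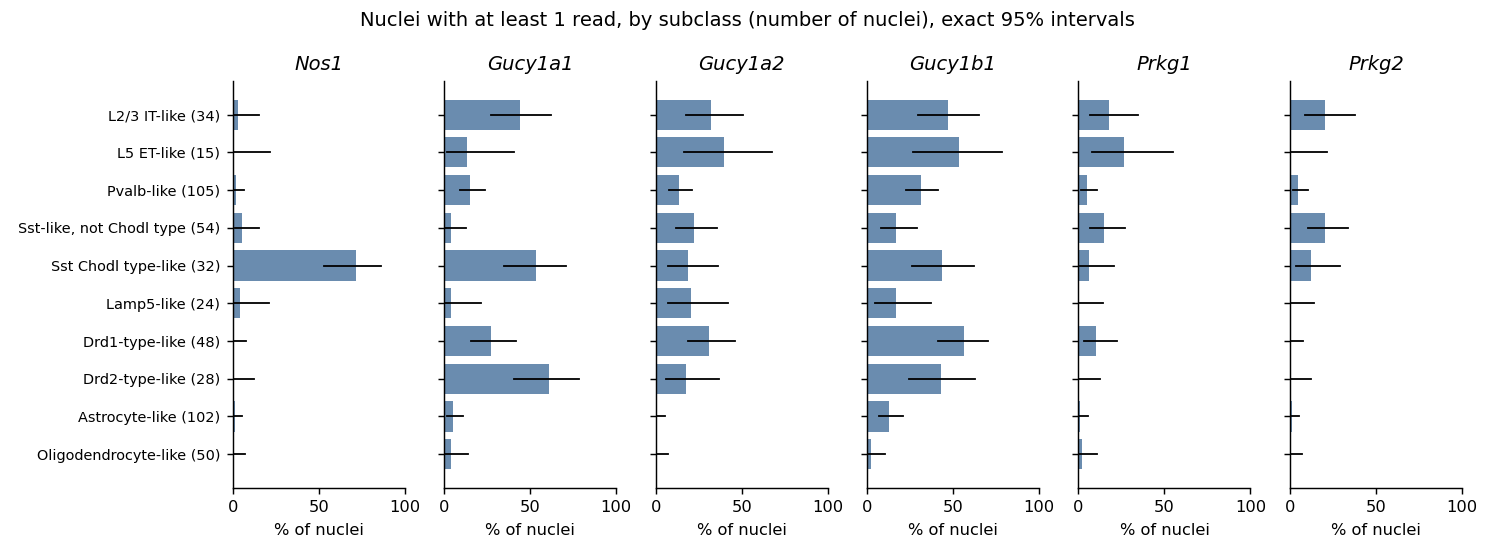
Share of nuclei with at least 1 read (horizontal axis, %) for the 6 genes, by subclass or class with its number of nuclei, with exact 95% intervals as lines. Nos1 stands at 71.9% in Sst Chodl type-like nuclei and at or below 5.6% in the other 9 groups, Gucy1a1 is highest in Drd2-type-like (60.7%) and Sst Chodl type-like nuclei (53.1%), and Prkg1 and Prkg2 stay at or below 26.7%.

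The 2 kinases were the least often read. Prkg1, cGMP-dependent protein kinase I (ENSMUSG00000052920, chromosome 19, 30564489 to 31765033, minus strand), had a read in 44 nuclei and was highest in glutamatergic-like nuclei, at 32.7 ± 49.0 CPM (n = 12, 0 CPM in 5 vectors and up to 145 CPM) and in 19 of 108 nuclei (17.6%, 10.9 to 26.1%). It averaged 5.55 ± 7.78 CPM in GABAergic-like (n = 18), 4.84 ± 11.1 CPM in striatal projection neuron-like (n = 14), 4.56 ± 12.1 CPM in oligodendrocyte-like (n = 7) and 0.532 ± 1.51 CPM in astrocyte-like nuclei (n = 8). The last 2 rest on 1 nucleus each. All 5 striatal projection neuron-like nuclei with Prkg1 reads were Drd1-type-like, 5 of 48 (10.4%, 3.47 to 22.7%), and none of 28 Drd2-type-like or 84 untyped nuclei had one. Prkg1 did not pass the filter on low counts in any of the 5 comparisons. In the 9 vectors with both classes it was lower in striatal projection neuron-like than in glutamatergic-like nuclei in 5 and at 0 in both in 4 (0.692 ± 2.08 against 32.6 ± 52.7 CPM, exact sign-flip permutation p = 0.0625, unadjusted).

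Prkg2, cGMP-dependent protein kinase II (ENSMUSG00000029334, chromosome 5, 98929773 to 99037351, minus strand), had a read in 35 nuclei. A single GABAergic-like nucleus without a subclass, of AiE0401h, held 2281 of its 4236 reads (53.9%). The GABAergic-like mean was 39.7 ± 93.3 CPM (n = 18) with that nucleus and 22.1 ± 50.4 CPM without it. The remaining levels were higher in certain subclasses: 11 of 54 Sst-like nuclei outside the Chodl type (20.4%, 10.6 to 33.5%, 78.1 CPM) and 7 of 34 L2/3 IT-like nuclei (20.6%, 8.70 to 37.9%, 52.9 CPM) had reads, against 5 of 105 Pvalb-like (4.50 CPM) and 2 of 59 glutamatergic-like nuclei without a subclass (0.880 CPM). Striatal projection neuron-like nuclei held a single Prkg2 read in 160 nuclei. In the 12 vectors compared, Prkg2 was higher in GABAergic-like than in striatal projection neuron-like nuclei in 6 and at 0 in both classes in the other 6 (exact sign-flip permutation p = 0.0312, unadjusted). It did not pass the filter, and with no filter edgeR gave an adjusted p of 0.0356, a value that depends on the zeros.

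Both kinases were thus low in striatal projection neuron-like nuclei, the leading class of Gucy1a1 and Gucy1b1. For Prkg1 this was not particular to that class. It averaged 4.84 ± 11.1 CPM there, 5.55 ± 7.78 CPM in GABAergic-like, 4.56 ± 12.1 CPM in oligodendrocyte-like and 0.532 ± 1.51 CPM in astrocyte-like nuclei. Per kilobase of exon in the GENCODE M21 annotation, striatal projection neuron-like nuclei averaged 24.1 ± 6.50 CPM per kb for Gucy1b1, 20.3 ± 14.9 for Gucy1a1, 4.01 ± 3.29 for Gucy1a2, 0.445 ± 1.03 for Prkg1 and 0.00394 ± 0.0148 for Prkg2 (SD, n = 14). Beta and alpha-1 lay within each other's spread there, and both kinases lay far below. In glutamatergic-like nuclei the 5 levels were closer, at 13.1 ± 6.56 CPM per kb for Gucy1b1, 7.12 ± 9.86 for Gucy1a2, 6.94 ± 6.91 for Gucy1a1, 3.81 ± 7.99 for Prkg2 and 3.01 ± 4.51 for Prkg1 (n = 12). In GABAergic-like nuclei Nos1 stood at 14.9 ± 16.6 CPM per kb beside 12.02 ± 14.5 for Gucy1b1 (n = 18). Exon length is a fair divisor only if intron reads were not counted, which is not given in the sources used here.

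Which alpha subunit prevailed differed between classes in size, without passing a test. Gucy1a2 made up 49.3% of the alpha subunit reads of glutamatergic-like nuclei, beside 21.6% for GABAergic-like, 20.3% for striatal projection neuron-like and 0.112% for astrocyte-like nuclei. Within vectors with at least 20 alpha subunit reads in both classes, its share was 23.9 ± 17.7% in GABAergic-like against 55.2 ± 37.8% in glutamatergic-like nuclei (n = 7, exact sign-flip permutation p = 0.141). It was 8.44 ± 6.23% in striatal projection neuron-like against 44.5 ± 45.0% in glutamatergic-like nuclei (n = 6, exact p = 0.0938), and 19.6 ± 15.5% against 22.2 ± 16.4% in GABAergic-like nuclei (n = 9, exact p = 0.766). In non-neuronal-like against neuronal-like nuclei it was 0% against 19.7 ± 10.03% (n = 5), where the exact p of 0.0625 is the smallest that 5 vectors allow. Adjusted over the 6 shares tested the exact p-values ran from 0.211 to 1. By subclass Gucy1a2 was the larger part in Sst-like nuclei outside the Chodl type (75.4% of 484 reads, with Gucy1a1 read in 2 nuclei). It was also the larger part in Lamp5-like nuclei (78.7% of 127 reads) and in glutamatergic-like nuclei without a subclass (69.8% of 1364). The same held in L5 ET-like nuclei, a glutamatergic-like subclass (52.6% of 350). In the Chodl type (3.09% of 1358 reads) and the other named subclasses Gucy1a2 was the smaller part. The Prkg2 share of kinase reads was 99.4 ± 1.18% in GABAergic-like against 28.2 ± 33.6% in glutamatergic-like nuclei (n = 4 vectors with at least 20 reads, exact p = 0.125, the smallest that 4 vectors allow).

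Source reads and reads of a whole receptor met in few nuclei, in GABAergic-like nuclei at about the share of the whole class. A working soluble guanylyl cyclase needs an alpha and a beta subunit, and both were read in 55 of 160 striatal projection neuron-like (34.4%), 24 of 108 glutamatergic-like (22.2%), 23 of 278 GABAergic-like (8.27%), 1 of 50 oligodendrocyte-like and 3 of 102 astrocyte-like nuclei. The thinned shares were 35.1, 21.8 and 7.92% in the 3 neuronal classes. Of the 36 GABAergic-like Nos1 nuclei 3 had both, beside 23 of all 278. Of the 23 Nos1 nuclei of the Sst Chodl type-like subclass 11 had Gucy1a1 reads, 9 had Gucy1b1 reads, 3 had an alpha and the beta subunit (7 of all 32 nuclei of the subclass did), and 3 had a kinase, Prkg2 in each. Those 7 include the 4 nuclei with vascular markers, which all had Gucy1a1 and Gucy1b1 reads and no Nos1 read. Over all 546 neuronal-like nuclei 38 had Nos1 reads, and 4 of these had an alpha and the beta subunit. The shares of all nuclei with both, given above, were 8.27 to 34.4% in the 3 neuronal classes. An alpha subunit, the beta subunit and a kinase were all read in 8 glutamatergic-like, 7 GABAergic-like and 3 striatal projection neuron-like nuclei. A read that was missed lowers each of these counts.

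A list of 68 further genes of the pathway covers other nitric oxide synthases, partners of neuronal nitric oxide synthase, its cofactor and substrate, other guanylyl cyclases, cyclic GMP breakdown and targets, and 62 of them had reads. Nos2, the inducible synthase, had a read in 1 nucleus. Nos3, the endothelial form, was read in 6 of 32 Sst Chodl type-like nuclei (18.8%, 17.8 CPM, 35.1 ± 46.8 CPM over 5 vectors), 1 of them among the 4 nuclei with vascular markers. By class it was at 3.43 ± 6.68 CPM in GABAergic-like (n = 18), 1.91 ± 4.50 CPM in striatal projection neuron-like (n = 14) and 1.01 ± 3.50 CPM in glutamatergic-like nuclei (n = 12). Neither passed the filter in any comparison.

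Slc7a3, a transporter that brings the substrate arginine into neurons, was the 1 of 33 pathway genes tested that was called between GABAergic-like and glutamatergic-like nuclei, where 1.71% of all genes were called higher and 1.37% lower. It averaged 139 ± 102 CPM in GABAergic-like and 11.6 ± 34.8 CPM in glutamatergic-like nuclei (log2 difference 9.20 ± 1.46, adjusted p = 0.000245, higher in 11 of 12 vectors). The fitted size depends on the zeros, since glutamatergic-like nuclei were at 0 in 10 of 12 vectors. By subclass it was highest where Nos1 was: 23 of 32 Sst Chodl type-like nuclei had reads, at 425 CPM over all of them, against 72.9 CPM in Pvalb-like and 30.9 CPM in the other Sst-like nuclei. Of the 23 Nos1 nuclei of that subclass 19 had Slc7a3 reads. In striatal projection neuron-like nuclei of the 12 vectors compared it had 0 reads. It was called lower there than in GABAergic-like nuclei (edgeR adjusted p = 9.51e-05). Slc7a3 passed the filter on low counts through the GABAergic-like sums alone, so the direction of that call was fixed in advance. No fold is given, since a single nucleus with reads would change it. Over all 160 striatal projection neuron-like nuclei 1 nucleus, outside those vectors' sums, had reads, giving 2.60 CPM beside 115 CPM over all GABAergic-like nuclei.

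Several genes that break down or answer to cyclic nucleotides were called in striatal projection neuron-like nuclei. Of 32 pathway genes tested against GABAergic-like nuclei 7 rose and 3 fell, where 3.14% of all genes rose and 5.60% fell. The median log2 difference was -0.29 beside -0.67 for all genes. Pde10a, a phosphodiesterase for both cyclic nucleotides, was at 3187 ± 671 against 198 ± 62.8 CPM (log2 difference 4.06 ± 0.20, adjusted p = 8.01e-12, higher in 12 of 12 vectors). Ppp1r1b, which encodes the phosphatase inhibitor DARPP-32, was at 819 ± 310 against 48.6 ± 52.3 CPM (4.88 ± 0.63, adjusted p = 1.42e-05), and Pde1b, a calmodulin-dependent phosphodiesterase, at 641 ± 231 against 65.2 ± 126 CPM (5.19 ± 0.85, adjusted p = 0.00024), each higher in 12 of 12 vectors. Those that fell included Slc7a3 and Pde9a, a phosphodiesterase selective for cyclic GMP (4.59 ± 9.38 against 91.9 ± 42.3 CPM, -7.71 ± 1.47, adjusted p = 0.0012), each lower in 12 of 12 vectors.

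Against glutamatergic-like nuclei 7 of 26 pathway genes tested rose in striatal projection neuron-like nuclei and 1 fell, where 1.65% of all genes rose and 1.44% fell. The median log2 difference was 0.92 beside 0.04 for all genes. Pde10a was at 3100 ± 604 against 258 ± 173 CPM (3.98 ± 0.35, adjusted p = 8.76e-07), Pde2a, a phosphodiesterase that cyclic GMP itself activates, at 671 ± 280 against 157 ± 85.4 CPM (2.23 ± 0.44, adjusted p = 0.00372), and Ppp1r1b at 860 ± 318 against 93.0 ± 124 CPM (4.73 ± 1.05, adjusted p = 0.012), each higher in 9 of 9 vectors. Pde1a, another calmodulin-dependent phosphodiesterase, was the 1 that fell, at 9.85 ± 20.8 against 197 ± 133 CPM (-8.66 ± 1.62, adjusted p = 0.00258, lower in 9 of 9). The same gene was the 1 of 29 called between Sst-like and Pvalb-like nuclei, at 229 ± 211 against 1.87 ± 6.48 CPM (9.93 ± 1.19, adjusted p = 2.15e-05, higher in 11 of 12), where 0.434% of all genes were called higher. Pvalb-like nuclei were at 0 in 11 of the 12 vectors, so this fitted size too depends on the zeros.

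**Figure D5:**
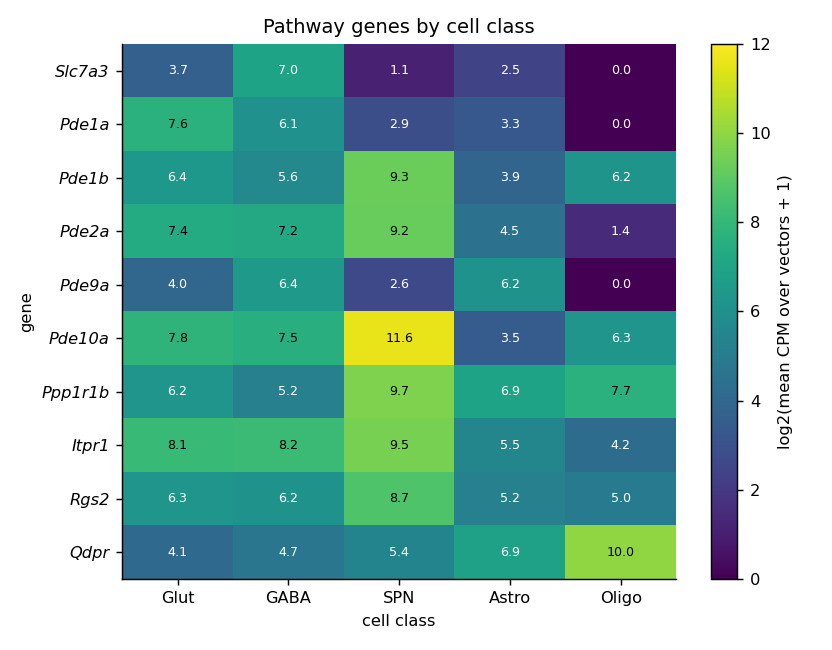
Pathway genes from among those called in a class comparison, as log2 of 1 plus the mean CPM over vectors (colour and number), by class (names as in the plot of the 6 genes by class). Pde10a reaches 11.6 in SPN beside 7.8 in Glut and 7.5 in GABA, Slc7a3 is highest in GABA at 7.0, and Qdpr is highest in Oligo.

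Non-neuronal-like nuclei differed from neuronal-like ones in 19 of 33 pathway genes tested, 18 lower and 1 higher, where 41.9% of all genes were called lower and 1.96% higher. The median log2 difference was -5.34 beside -3.52 for all genes. Those that fell included Pde2a (11.6 ± 40.8 against 297 ± 109 CPM, adjusted p = 1.24e-06) and Pde10a (32.7 ± 78.2 against 1151 ± 842 CPM, adjusted p = 1.40e-06), each lower in 15 of 15 vectors. Qdpr, the reductase that regenerates the cofactor tetrahydrobiopterin, was the 1 that rose, at 569 ± 579 against 26.6 ± 18.6 CPM (log2 difference 3.44 ± 1.09, adjusted p = 0.0111, higher in 13 of 15 vectors). It averaged 1030 ± 579 CPM in oligodendrocyte-like (n = 7) and 115 ± 95.9 CPM in astrocyte-like nuclei (n = 8).

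Over the 59 sums of 1 class in 1 vector, the genes whose log2(CPM + 1) ran most like each member were, by Pearson correlation, Moxd1 (0.87), Lhx6 (0.85) and Btbd11 (0.85) for Nos1, and B3gnt2, Rapgef2 and Gabrd (0.65 to 0.66) for Gucy1a1. For Gucy1a2 they were Celf5, Syt7 and Igsf9b (0.75 to 0.77), for Gucy1b1 Fnbp1l (0.87), Smpd3 (0.82) and Plcb1 (0.81), for Prkg1 Ikzf5, Ak5 and Taf1a (0.54 to 0.55), and for Prkg2 Tmem145, Ptpru and Tmem237 (0.52 to 0.55). Among the members themselves the highest values joined the 3 receptor genes, at 0.53 for Gucy1a2 with Gucy1b1, 0.50 for Gucy1a1 with Gucy1b1 and 0.48 for Gucy1a1 with Gucy1a2. Nos1 ran from 0.11 with Gucy1a1 to 0.26 with Prkg2. Sums of the same vector share the vector and its label, and many sums were 0, so these values describe and do not test.

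By vector label, with all 40 nuclei of each, the receptor genes were read in all 20 vectors and the source gene in 17. Nos1 had a median of 58.2 CPM over vectors and a maximum of 234 CPM in AiE0475m, and was at 0 in AiE0390m, AiE0410m and CMV. In AiE0475m 5 of 40 nuclei carried the reads, and 1 of them held 65.3%. The ranges over vectors were 3.80 to 124 CPM for Gucy1a1 (median 44.5), 1.35 to 40.8 CPM for Gucy1a2 (12.9), 12.5 to 94.0 CPM for Gucy1b1 (45.0), 0 to 37.3 CPM for Prkg1 (5.51) and 0 to 235 CPM for Prkg2 (1.21). Vectors differ in the classes their nuclei belong to, and fewer nuclei of a class and less RNA per nucleus cannot be told apart in these sums. No test between vectors was made.

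The library names fall into 4 series of libraries, of which S40326 (408 nuclei) and S40324 (312 nuclei) are the largest, and the leading classes of Nos1, Gucy1a1 and Gucy1b1 were the same in both. In S40324 and S40326 Nos1 was at 118 and 222 CPM in GABAergic-like nuclei, and was read in 7 of 12 and 16 of 20 Sst Chodl type-like nuclei. Gucy1a1 was at 160 and 128 CPM in striatal projection neuron-like nuclei, against 60.05 and 38.6 CPM in GABAergic-like and 14.96 and 42.7 CPM in glutamatergic-like nuclei, so that the order of the latter 2 classes differed between the series. Gucy1b1 was at 93.0 and 91.7 CPM in striatal projection neuron-like nuclei, against 34.3 and 42.2 CPM in GABAergic-like and 45.4 and 56.4 CPM in glutamatergic-like nuclei. Prkg2 differed between the series in both classes that held it, at 15.9 and 65.4 CPM in GABAergic-like nuclei, where the nucleus with 2281 reads is in S40326, and at 36.4 and 1.03 CPM in glutamatergic-like nuclei.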

How the data were processed

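The authors deposited 1 table of raw counts, whole reads per gene and nucleus, from SMART-Seq v4 libraries of single nuclei. Reads were aligned to mm10 with STAR 2.7.2a, per the submitters' processing notes, and whether intron reads were counted is not given in the sources used here. Of 2501 columns 800 match a labelled nucleus, and the other 1701 were not used. Of 32285 genes 32158 were matched to a symbol. No molecular identifiers are described, so intervals cover counting error only.

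Nuclei with at least 1000 genes were clustered (scanpy 1.11.5, leidenalg 0.10.2) without the 6 genes and their pathway, and clusters were named from marker lists. No doublet caller was run, and nuclei with markers of vessel cells were counted in their place. The members and lists were chosen with earlier results of these data known. Each vector counts as 1 sample. Reads were summed per vector and class (at least 3 nuclei of each) and tested with edgeR 4.0.16 (R 4.3.3) by its quasi-likelihood F test, with TMM normalization, filterByExpr and vector as a block, since both sums of a vector come from nuclei that received the same vector and carry the same label. P-values were adjusted by Benjamini-Hochberg over all genes tested at a threshold of 0.05. Single values were also compared with an exact two-sided sign-flip permutation test over vectors on log2(CPM + 1), 30 in all, unadjusted. The script was tested on simulated data. Alternatives included DESeq2 1.42.0, other filters, classes and depths, and leaving out each vector. Named pathway genes are those called, at most 3 in each direction by adjusted p where more than 5 were called. Values of 1 gene that this rule names are not reported here. Promoter letters are RefSeq's for GRCm38.p6, and gene positions are from GENCODE M21, which need not be the authors' annotation.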

Additional observations from a re-analysis of the deposited data

Results flagged for a closer look

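In groups of 4 to 10 vectors, 30 sets of levels were searched for 1 vector far from the others. Of these 11 had one. A vector with reads is always flagged where the others are at 0, so a chance rate of 1 in 20 does not hold here. Most rest on a single nucleus. In astrocyte-like nuclei they were Nos1 at 0.473 CPM in AiE0391h, Prkg1 at 4.26 CPM in AiE0391h and Prkg2 at 38.6 CPM in CMV, with the other vectors at 0. In oligodendrocyte-like nuclei 1 nucleus of AiE0682h held Gucy1a1 at 32.6 CPM in its vector, 1 nucleus of that vector held Gucy1b1 at 25.8 CPM, and 1 nucleus of AiE0447h held Prkg1 at 31.9 CPM. Among Sst-like nuclei outside the Chodl type, Gucy1a1 stood at 12 CPM in AiE0452h and Gucy1b1 at 60.6 CPM in DLX2.0, each from 1 nucleus. Prkg1 at 28.3 CPM in AiE0452h came from 5 of 15 nuclei, the single case that rests on more than 1. In the Sst Chodl type-like subclass Prkg2 was at 4.27 CPM in AiE0078h, from 3 reads, and among L2/3 IT-like nuclei Nos1 was at 20.4 CPM in AiE0140h.

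The 102 nuclei with fewer than 1000 genes entered no comparison, and 4 of the 6 genes had reads there above the limit that 3 counts set, 0.122 CPM. Nos1 was at 5.49 CPM from 1 nucleus, Gucy1a1 at 6.67 CPM from 3, Gucy1a2 at 2.64 CPM from 1 and Gucy1b1 at 9.35 CPM from 1.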

How the results depend on the processing

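The counts of called members changed under several alternatives. GABAergic-like against glutamatergic-like nuclei had 0 calls and 1 with DESeq2 (Gucy1a2), 1 with no filter, with at least 5 nuclei per class and vector or with a higher minimum of genes per nucleus (Nos1 in each), and 0 to 1 when each vector was left out (1 without CMV or without hSyn1, both Nos1). Striatal projection neuron-like against glutamatergic-like nuclei had 0 and 1 with DESeq2. Against GABAergic-like nuclei the count was 1, and 2 with DESeq2, 3 with no filter (Nos1, Gucy1a1 and Prkg2), 0 with equal numbers of nuclei or in S40326 alone, and 0 to 1 when each vector was left out (0 without AiE0445h_3xC2), and Nos1 was not tested where it was 0. Sst-like against Pvalb-like nuclei had 0, and 1 (Nos1) with no filter, with at least 5 nuclei, with a higher minimum of genes per nucleus or with Leiden resolution 0.5. The unadjusted sign-flip test put 2, 2, 4 and 1 members under 0.05 in these 4 comparisons, and 6 in non-neuronal-like against neuronal-like nuclei. That last comparison had 3 calls, 6 with no filter, 1 with at least 5 nuclei (Gucy1a1), 0 without the runs that held a striatal projection neuron-like nucleus, 0 in S40324 alone and 0 in S40326 alone, and 3 whichever vector was left out. The non-neuronal-like comparison had 2 calls (Gucy1a1 and Gucy1a2) with a lower minimum of genes per nucleus, with Leiden resolution 0.5 or with class by marker level. With equal numbers of nuclei it had 2 (Gucy1a1 and Gucy1b1), and Gucy1a2 was not tested. The cause of these changes was not tested.

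Without the replicate block, which pairs the sums of 1 vector, the non-neuronal-like comparison had 1 call (Gucy1a2), and the other 4 had the same number of calls as with it. With at least 10 alpha subunit reads the Gucy1a2 share differed by -40.5 percentage points between GABAergic-like and glutamatergic-like nuclei (9 vectors, exact permutation p = 0.0352) and by -35.2 between striatal projection neuron-like and glutamatergic-like nuclei (8 vectors, exact p = 0.0234), where 20 reads gave -31.3 and -36.0. No fit could be made in S40324 alone for the 4 comparisons of neuronal classes, or with the higher minimum of genes for non-neuronal-like nuclei. Leaving out nuclei with vascular markers, chosen after seeing the data, changed no count of called members.

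Counts of called pathway genes moved more. Over the alternatives they ran from 0 to 7 beside 1 for GABAergic-like against glutamatergic-like nuclei, from 2 to 10 beside 8 for striatal projection neuron-like against glutamatergic-like, from 8 to 17 beside 10 against GABAergic-like, from 3 to 26 beside 19 for non-neuronal-like against neuronal-like, and from 0 to 8 beside 1 for Sst-like against Pvalb-like nuclei.

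Leaving out the vector with the highest level, a choice made after seeing the data, moved these means by more than 1.5 times among those that rest on more than 1 nucleus: Gucy1a2 in glutamatergic-like nuclei to 30.2 CPM (without AiE0452h), Gucy1a1 and Gucy1b1 in astrocyte-like nuclei to 17.9 and 13.9 CPM (without AiE0445h_3xC2 and AiE0743m_3xC2), Prkg2 in glutamatergic-like and GABAergic-like nuclei to 8.61 and 21.1 CPM (without AiE0450h and AiE0401h), and Prkg1 in striatal projection neuron-like nuclei to 2.68 CPM (without AiE0387m). Gucy1a1 in oligodendrocyte-like nuclei, from 2 nuclei, moved to 0.0337 CPM (without AiE0682h).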
